A study of Mus musculus with 7 samples.

Results

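The genes that encode the proteins of the cytosolic ribosome were followed in islets of mice with and without a Cre-driven deletion of Gata6. They were chosen by name: every gene whose symbol in the platform annotation reads Rpl or Rps with a number, together with the stalk proteins Rplp0 to Rplp2 and Rpsa. Only probe sets with 1 gene symbol were used. Where a gene had several, the probe set with the highest mean over the 7 arrays stood for it, so measured values chose the probe set and the symbol chose the gene. Those values include the arrays of mice with the deletion, so the choice can favour a probe set that is high in them. This gave 67 of the 22180 genes tested, 42 of the large and 25 of the small ribosomal subunit. Of these, 58 are core ribosomal protein genes and 9 are like-named paralogs or gene copies (Rpl3l, Rpl6l, Rpl7l1, Rpl10l, Rpl22l1, Rpl32l, Rpl39l, Rps4l and Rps27l). A further 13 symbols, among them Rpl10, Rpl12, Rpl23, Rps2 and Rps21, occurred only on probe sets that carry several symbols and were not analysed by name.

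The study set islets of control mice, Gata6 flox/flox without Cre (3 arrays), against islets of mice called Gata6 KO, Gata6 flox/flox with the Pdx1-Cre transgene (4 arrays). Each array held islet RNA pooled from 3 mice at 2 months of age, hybridised to an Affymetrix mouse whole-transcript array. Values are log2 signals. Pdx1-Cre is active in the pancreatic epithelium, from which exocrine as well as endocrine cells arise. Because the controls carry the floxed alleles but no Cre, an effect of Cre cannot be told apart from one of Gata6. No array date or litter was given, so a batch was not examined.

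Ribosomal proteins are made in near equal amounts and are built, with ribosomal RNA, into the small subunit that decodes messenger RNA and the large subunit that joins amino acids. Their messenger RNAs are among the most abundant of a cell, and most begin with a cytosine followed by a run of pyrimidines, the terminal oligopyrimidine or TOP motif, through which the mTORC1 kinase controls their translation. Secretory cells such as the acinar and beta cells of the pancreas are rich in ribosomes. Ribosomal protein genes also have many processed pseudogenes, nearly identical copies elsewhere in the genome, so a probe set's signal can include such copies and single values are uncertain in that respect.

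To show the sequence at the starts of some members, 80-base windows around annotated transcription starts were read from RefSeq (GRCm38.p6), 60 bases before the start and 20 from it. Rpl9, Rps13 and Rps3a1 were chosen as genes with some of the largest differences, Rpl14, Rpl35, Rpl15 and Rps6 as genes that passed the test and have a TOP-like run at the start, and Rps27 as one with such a run that did not pass. Because call and size of difference entered the choice, the printed windows do not show how often members with such a run rose. Capitals mark a run of pyrimidines opened by a cytosine at the start base. The windows are Rpl9 (chr5:65391412-65391491, minus strand), Rps13 (chr7:116334171-116334250, minus strand), Rps3a1 (chr3:86142649-86142728, minus strand), Rpl14 (chr9:120571457-120571536, plus strand), Rpl35 (chr2:39005112-39005191, minus strand), Rpl15 (chr14:18270967-18271046, minus strand), Rps6 (chr4:86857348-86857427, minus strand) and Rps27 (chr3:90213629-90213708, minus strand).
Rpl9: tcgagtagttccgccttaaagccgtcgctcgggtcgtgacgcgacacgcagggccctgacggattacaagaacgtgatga
Rps13: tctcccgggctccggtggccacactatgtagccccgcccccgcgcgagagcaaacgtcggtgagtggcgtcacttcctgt
Rps3a1: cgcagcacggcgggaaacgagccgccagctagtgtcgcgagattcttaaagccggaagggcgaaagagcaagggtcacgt
Rpl14: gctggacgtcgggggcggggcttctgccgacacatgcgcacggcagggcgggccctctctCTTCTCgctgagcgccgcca
Rpl35: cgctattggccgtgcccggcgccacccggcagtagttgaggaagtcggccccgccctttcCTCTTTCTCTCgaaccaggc
Rpl15: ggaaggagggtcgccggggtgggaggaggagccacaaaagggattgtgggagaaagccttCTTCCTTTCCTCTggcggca
Rps6: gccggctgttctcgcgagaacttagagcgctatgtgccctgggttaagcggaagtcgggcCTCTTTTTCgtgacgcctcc
Rps27: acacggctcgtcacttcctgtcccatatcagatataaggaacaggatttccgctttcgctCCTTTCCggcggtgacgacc

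The motif searched was a C at the annotated start base followed by 4 pyrimidines (C or T), on the strand of the gene only. It stood at the start in 11 of the 61 windows found for members (18.0%) against 2.5% of all 32851 windows in the table. With 5 bases of slack on either side of the start, 39.3% of member windows held it against 18.3% of all windows. By gene, 11 of 52 members with a window had the run at a start (21.2%, against 3.0% of all genes): Rpl14, Rpl15, Rpl28, Rpl32l, Rpl35, Rpl38, Rplp2, Rps10, Rps18, Rps27 and Rps6. A match is a string of letters at an annotated start, and its absence from a window says nothing of the gene's true start.

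Before the members, the labels were checked. Gata6 itself measured 4.60, 4.80 and 4.83 in controls and 5.41, 5.35, 5.34 and 5.01 in Gata6 KO islets, which did not overlap, with the arrays labelled Gata6 KO above the controls. The log2 difference was 0.37 relative to all genes (SE 0.20, limma, adjusted p = 0.0622) and the exact two-sided permutation p was 0.0571. The array therefore does not show lower Gata6 in the libraries labelled Gata6 KO, and whether its probes lie in the deleted exons was not examined. Over all genes, the median log2 difference of Gata6 KO minus control was 0.17, so each difference below is given relative to that shift, while its SE and adjusted p belong to the unshifted difference. Endocrine markers gave high signals in the controls, and 17 of 18 fell: their summed signal was 19700 to 25480 on control arrays and 1244 to 6108 on Gata6 KO arrays. Acinar markers were high on every array and 14 of 25 rose, with summed signals of 95750 to 100600 against 123000 to 141900. Mesenchymal markers rose for 9 of 12 (128.3 to 260.2 against 225.8 to 815.2), lymphoid ones for 6 of 11 (39.47 to 41.84 against 69.41 to 127.5) and myeloid ones for 4 of 11 (75.72 to 100.5 against 84.08 to 273.6). Ductal markers went both ways, 3 of 8 higher and 2 lower (268.2 to 441.6 against 468.7 to 806.5), as did endothelial ones, 2 of 10 higher and 4 lower (362.7 to 519 against 156.1 to 344.5). Across all genes tested 17.4% rose and 7.36% fell (limma, adjusted p under 0.05). Array signals have no true zero, so no marker was read as absent. In islets taken as a whole, fewer cells of a type and less RNA per cell cannot be told apart, and the part of these marker shifts in the results on ribosomal protein genes was not tested.

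On the deposited scale, every ribosomal protein gene that passed the test was higher in Gata6 KO islets. Of the 67, 38 rose (56.7%), none fell and 29 did not pass the test (limma with Benjamini-Hochberg adjustment over all 22180 genes, adjusted p under 0.05). Across all genes 17.4% rose and 7.36% fell. By unadjusted p under 0.05, 43 members were higher and 1, Rps20, was lower, where 5853 of all 22180 genes were higher and 2429 lower. The median log2 difference of the 67 was 0.55 relative to all genes, with an interquartile range from 0.21 to 1.03, and 54 of them lay above the median of all genes and 13 below. For 41 members every Gata6 KO array was above every control array, and for none was every Gata6 KO array below, where 24.4% and 9.96% of all genes had such an order. Counts with other scalings of the arrays were lower. When each array was centred on its median, 25 members rose and 3 fell (Rpl32, Rplp1 and Rps20), where 7.85% of all genes rose and 12.8% fell. When quantile normalization was repeated, 27 rose and 5 fell (Rpl28, Rpl29, Rpl32, Rplp1 and Rps20), where 9.1% of all genes rose and 13% fell. Those scalings moved the share of higher genes among all called genes from 70.2% to 38.1% and 41.1%. Without Gata6 KO array 4, 35 members rose and 3 fell (Rpl28, Rpl29 and Rplp1), where 17.2% of all genes rose and 8.12% fell. Under both other scalings 24 members rose, 11 of the large and 13 of the small subunit, among them Rpl9, Rps13, Rpl7, Rps3a1, Rps14, Rps12 and Rpsa. The other 14 rises lost the call under at least 1 of those scalings: Rpl3, Rpl3l, Rpl4, Rpl7l1, Rpl8, Rpl10l, Rpl13, Rpl15, Rpl17, Rpl27, Rpl41, Rps6, Rps7 and Rps29. Because these genes were chosen with results of these arrays in view, the counts and medians are a description and no test was made of the group.

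**Figure D1:**
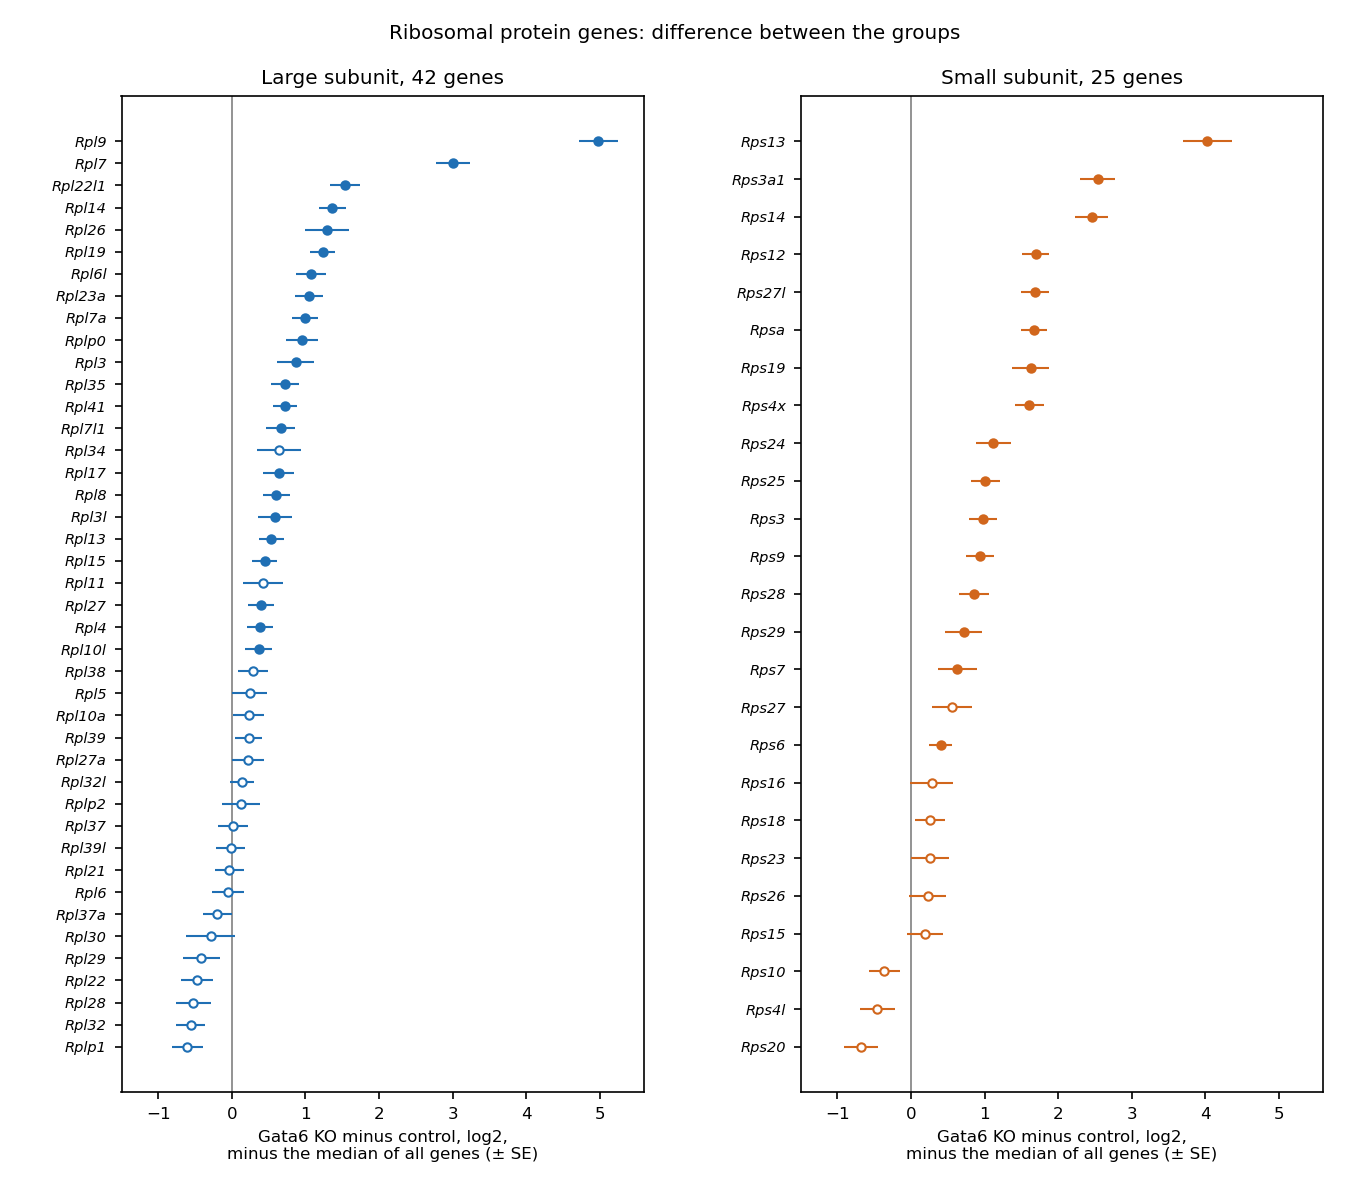
Log2 difference (Gata6 KO minus control, relative to the 0.17 median of all genes) of each of the 67 ribosomal protein genes, ordered by size and with large and small subunit apart. Bars are the standard error from limma, and filled points passed the adjusted p threshold of 0.05. Rpl9 leads the large subunit at 4.98 and Rps13 the small subunit at 4.03, and no gene passed on the lower side.

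Rises were found in both subunits, and their counts are to be read beside the 17.4% of all genes that rose. In the large subunit 22 of 42 genes rose, with a median difference of 0.41, and 20 did not pass. In the small subunit 16 of 25 rose, with a median of 0.86, and 9 did not pass. The core genes alone gave 32 of 58 (17 of 35 large, 15 of 23 small), and the like-named paralogs 6 of 9. The difference between the subunits was not tested. The members' median in controls was 5.11, 5.09 and 5.01 on the log2 scale, and in Gata6 KO islets 6.98, 6.78, 6.90 and 6.62. The groups did not overlap, although this median follows from the members chosen. The summed signal of the 67, on a linear scale, ran from 16560 to 18990 in controls and from 23050 to 28770 in Gata6 KO islets. Large-subunit medians per array lay between 5.23 and 5.65 in controls and between 7.16 and 7.31 in Gata6 KO islets, and small-subunit medians between 5.01 and 5.09 and between 5.65 and 6.21. These levels are not shifted for all genes, and a median of levels can overstate the change of the single genes. The mean log2 signal went from 5.31 to 6.05 in the large subunit, from 5.08 to 6.22 in the small and from 5.23 to 6.11 in all members. Over all genes it went from 2.66 to 2.81.

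**Figure D2:**
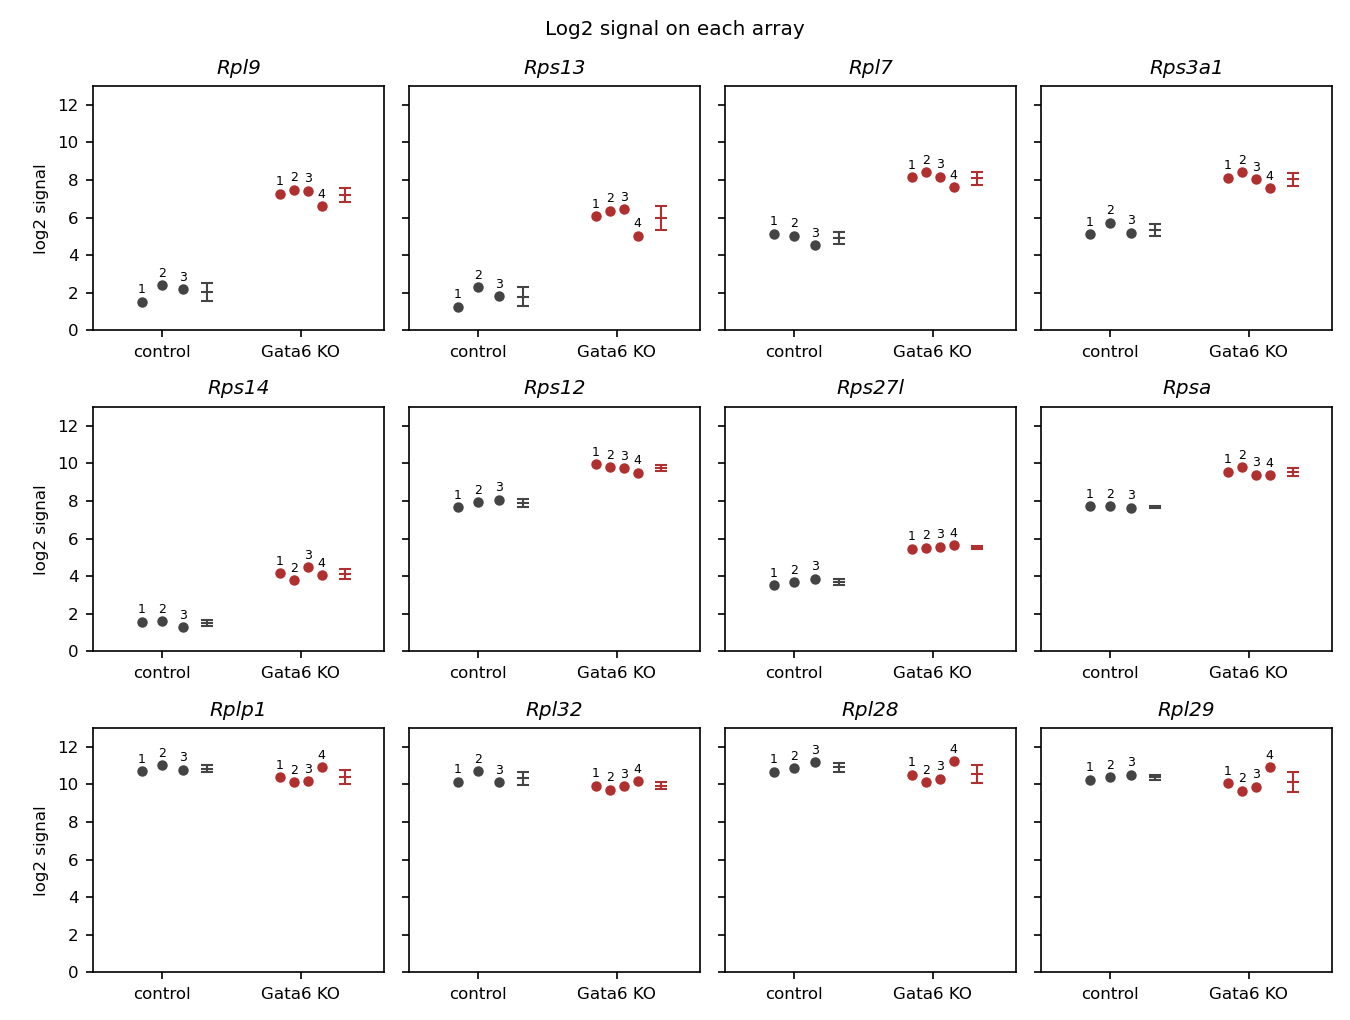
Log2 signal on each of the 7 arrays for the 8 ribosomal protein genes with the largest rises and for Rplp1, Rpl32, Rpl28 and Rpl29, which did not pass. Points are single arrays with their replicate number, and the bars beside them are the mean ± SD of 3 control or 4 Gata6 KO arrays. For Rpl9 the Gata6 KO arrays lie between 6.62 and 7.48 and the controls between 1.53 and 2.42, while the groups overlap for the 4 genes of the bottom row.

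The largest rise was that of Rpl9, a protein of the large subunit. Controls measured 1.53, 2.42 and 2.21 and Gata6 KO islets 7.27, 7.48, 7.43 and 6.62. No array of one group came near the other, and Gata6 KO array 4 was the lowest of its group. The log2 difference was 4.98 (SE 0.27, limma, adjusted p = 1.77e-07). Control values this low lie near the array's background, where folds are compressed, and the signal can include gene copies. The size of this difference is therefore uncertain, as it is for Rps13, Rps14, Rpl22l1 and Rpl26 below. The gene's second probe set measured 1.80, 2.06 and 2.10 in controls and 1.32, 1.06, 1.82 and 1.71 in Gata6 KO islets, a difference of -0.69 that did not pass (limma over all probe sets, adjusted p = 0.162). That probe set stayed near background in both groups, so no direction is read from it. In controls the probe sets of Rpl9 were alike, with means of 2.05 and 1.99. The Gata6 KO arrays, with means of 7.20 and 1.48, thus largely decided which probe set was chosen, and the rise given here rests on that choice.

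Rps13, a small-subunit protein at the interface with the large subunit, measured 1.27, 2.29 and 1.82 in controls and 6.08, 6.37, 6.45 and 5.04 in Gata6 KO islets. The groups were far apart and array 4 of the Gata6 KO islets was again the lowest of its 4. Its difference was 4.03 (SE 0.33, limma, adjusted p = 3.12e-06), of uncertain size because the controls lie near background. Rpl7, a large-subunit protein, measured 5.15, 5.03 and 4.55 against 8.14, 8.40, 8.17 and 7.62, with no overlap. It rose by 3.00 (SE 0.23, limma, adjusted p = 1.59e-06). Rps3a1, a small-subunit protein near the path by which messenger RNA leaves, measured 5.11, 5.73 and 5.19 against 8.12, 8.42, 8.06 and 7.57. Gata6 KO arrays lay above controls throughout, with a difference of 2.54 (SE 0.23, limma, adjusted p = 5.32e-06). The other probe set of Rps3a1 measured 2.49, 2.81 and 2.10 against 2.64, 3.31, 3.21 and 2.83, a difference of 0.36 that did not pass (limma over all probe sets, adjusted p = 0.184). Rps14, the small-subunit protein whose loss marks a deletion form of myelodysplastic syndrome, measured 1.58, 1.62 and 1.30 against 4.18, 3.78, 4.47 and 4.07. It too showed no overlap, with a difference of 2.46 (SE 0.22, limma, adjusted p = 4.48e-06).

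Rps12, a protein of the head of the small subunit, had 8 probe sets, and the chosen one measured 7.69, 7.94 and 8.07 in controls and 9.94, 9.82, 9.76 and 9.51 in Gata6 KO islets. Its difference was 1.69 (SE 0.18, limma, adjusted p = 1.35e-05), and the groups were apart. Rps27l, a paralog of Rps27 and a target of p53, measured 3.53, 3.70 and 3.87 against 5.46, 5.51, 5.58 and 5.65 and rose by 1.69 (SE 0.19, limma, adjusted p = 2.01e-05). Rpsa, a small-subunit protein also known as the laminin receptor precursor, measured 7.71, 7.74 and 7.64 against 9.56, 9.81, 9.40 and 9.38 and rose by 1.67 (SE 0.18, limma, adjusted p = 1.15e-05). These 8 were picked among members whose groups do not overlap. By that choice each was higher on 4 of 4 Gata6 KO arrays than on any control array. The exact permutation p was 0.0286 for each, the smallest that 35 splits of the arrays allow. It follows largely from the same choice and adds no support. Further rises of at least 2-fold relative to all genes were those of Rps4x (1.61), Rpl14 (1.37), Rpl26 (1.29), Rpl6l (1.08) and Rps25 (1.01), with Rps19, Rpl22l1, Rpl19, Rps24 and Rpl23a described below. In all, 18 members reached 2-fold (8 large, 10 small), 26.9% of the 67 against 4.27% of all genes, and 5 reached 4-fold.

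The stalk of the large subunit, which recruits elongation factors, was uneven. Rplp0, its base, measured 6.51, 6.10 and 5.91 in controls and 7.07, 7.30, 7.66 and 7.18 in Gata6 KO islets. The groups did not overlap and the rise was 0.96 (SE 0.22, limma, adjusted p = 0.00208). Rplp1, one of the acidic proteins that Rplp0 carries, measured 10.69, 11.03 and 10.79 against 10.37, 10.11, 10.19 and 10.93. Its groups overlapped, and the difference was -0.60 (SE 0.21, limma, adjusted p = 0.141). With Gata6 KO array 4 left out it passed as lower, with a difference of -0.75 relative to all genes and an adjusted p from limma of 0.0161, and it also passed as lower under both scalings. Its other probe set measured 3.18, 3.49 and 3.53 in controls and 3.64, 4.12, 3.59 and 3.93 in Gata6 KO islets. That difference was 0.24 and did not pass (limma over all probe sets, adjusted p = 0.222). Rplp2, the partner of Rplp1, measured 1.36, 1.49 and 0.91 against 1.36, 1.44, 1.13 and 2.26, overlapping, with a difference of 0.12 (SE 0.25) that did not pass. Rpl5 and Rpl11 bind the smallest ribosomal RNA of the large subunit, and when free hold back Mdm2. Rpl5 measured 2.47, 2.70 and 2.80 against 2.495, 3.13, 3.40 and 3.24, and Rpl11 1.27, 1.21 and 1.42 against 1.80, 1.63, 2.74 and 1.40. Both overlapped between groups and neither passed, with differences of 0.24 (SE 0.24, limma, adjusted p = 0.239) and 0.43 (SE 0.27, adjusted p = 0.128).

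Other places on the ribosome were taken from lists of textbook positions. Across all genes 17.4% rose and 7.36% fell. Of 6 measured proteins at the exit of the peptide tunnel, where the new chain leaves, 5 rose with a median difference of 0.89, among them Rpl26 (1.29), Rpl19 (1.24), Rpl23a (1.05) and Rpl35 (0.72). The tunnel-exit gene that did not pass was Rpl39, at 0.23. In the head of the small subunit 5 of 10 rose and none fell, with a median of 0.50. Of 15 measured genes whose loss causes Diamond-Blackfan anaemia, a failure of red cell production, 9 rose and none fell, with a median of 0.55. Rps19, the most often affected of them, measured 5.96, 6.22 and 5.20 in controls and 7.68, 7.85, 7.55 and 7.24 in Gata6 KO islets and rose by 1.62 (SE 0.25, limma, adjusted p = 0.000199).

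Among the paralogs, Rpl22l1, a second copy of Rpl22, was the large-subunit one with the largest difference. It measured 1.02, 1.39 and 1.06 in controls and 2.82, 2.85, 2.70 and 3.10 in Gata6 KO islets, which did not overlap, and rose by 1.54 (SE 0.20, limma, adjusted p = 6.00e-05). Rpl22 itself had a difference of -0.47 and did not pass. Rpl7l1, a protein of ribosome precursors, measured 2.83, 2.83 and 3.00 against 3.94, 3.75, 3.52 and 3.65 and rose by 0.66 (SE 0.20, limma, adjusted p = 0.00904). Rpl3l, the paralog of heart and skeletal muscle, measured 1.91, 2.25 and 2.09 against 2.46, 2.90, 2.72 and 3.26, a difference of 0.59. Rpl10l, a paralog of the testis, measured 0.63, 0.64 and 0.50 against 1.41, 0.89, 0.76 and 1.42, a difference of 0.37. Both were called higher (limma, adjusted p = 0.0283 and 0.0483) at signals near the array's background, and each call was lost when any of 5 single arrays was left out. Those arrays were control 1, 2 and 3 with Gata6 KO 2 and 4 for Rpl3l, and control 1, 2 and 3 with Gata6 KO 1 and 4 for Rpl10l, with adjusted p up to 0.12 and 0.144. Rpl39l, another paralog found in testis, measured 2.42, 2.36 and 2.64 against 2.62, 2.65, 2.60 and 2.62 with overlap and a difference of -0.02 that did not pass. Rps4l, listed by RefSeq as a transcribed pseudogene, measured 2.53, 3.05 and 2.48 against 2.31, 2.10, 2.33 and 2.82 and likewise overlapped, at -0.46. Rpl6l, which RefSeq lists as a pseudogene, measured 6.68, 6.19 and 6.07 against 7.70, 7.52, 7.36 and 7.65 and rose by 1.08 (SE 0.20, limma, adjusted p = 0.00067), without overlap. Rpl32l, named after Rpl32, measured 0.67, 0.30 and 0.46 against 0.90, 1.09, 0.58 and 0.54, with overlap and a difference of 0.14 that did not pass.

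Genes with more than 1 probe set allow the choice of probe set to be read against the rest. The platform has 108 single-symbol probe sets for the members, 101 of them distinct in their values, and of the distinct ones 50 rose and none fell when all 41345 probe sets were fitted together, where 11.8% of all probe sets rose and 3.94% fell. Of the 34 distinct probe sets that were not chosen and are not copies of the chosen one, 17 rose. The 57 probe sets that carry several symbols, 1 of them a ribosomal protein, stood outside the choice of members, and 34 of them rose (59.6%) and none fell, with a median of 0.78. Within that set 7 of 10 that also name a small RNA rose and 27 of the 47 that do not. Of 24 genes with several distinct probe sets, 8 had all of them higher, 12 had some and 4 had none, and none had a lower one.

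**Figure D3:**
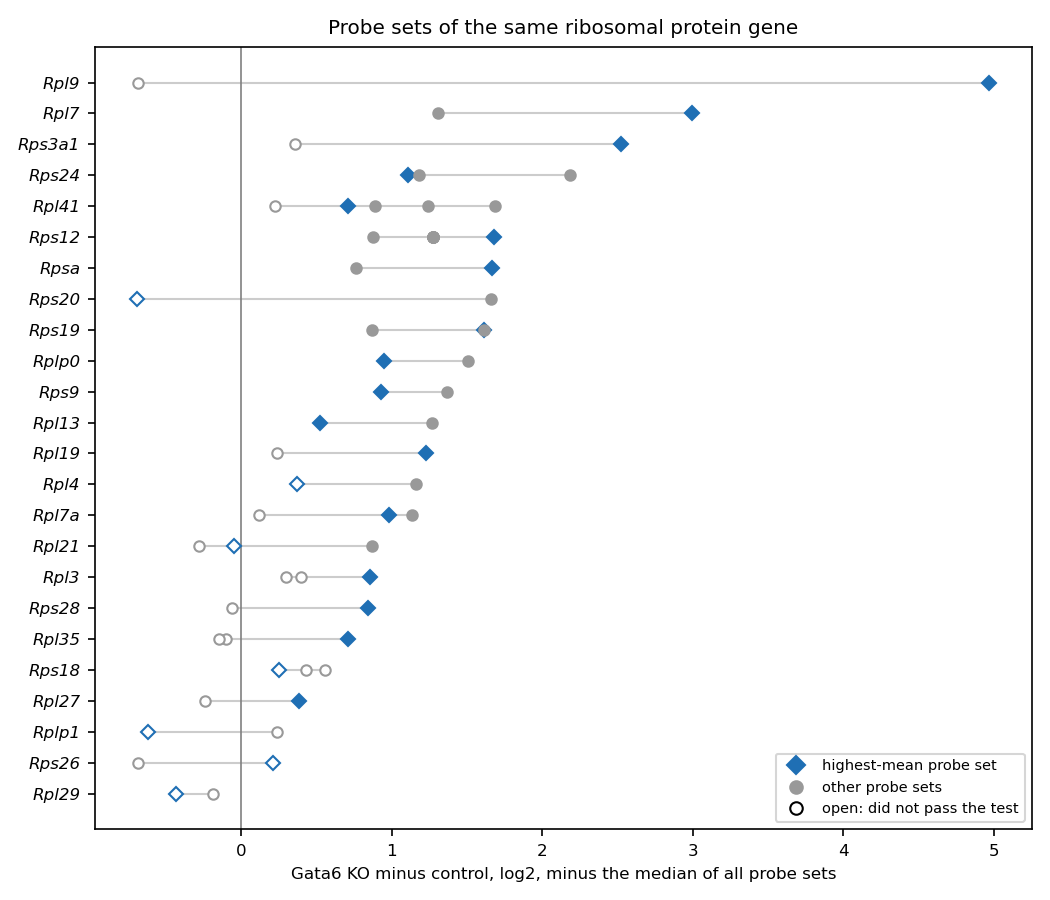
Log2 difference (Gata6 KO minus control, relative to the median of all probe sets) of each distinct probe set of the 24 ribosomal protein genes that have several, one gene per line. Diamonds are the probe sets used for the gene, circles the others, and open symbols did not pass an adjusted p of 0.05 over all 41345 probe sets. The symbols of Rpl9 lie at 4.97 and -0.69, and those of Rps20 at -0.69 and 1.66.

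The values of these genes ranged from large rises to none. Rpl19, at the tunnel exit, measured 8.45, 8.58 and 8.37 in controls and 9.96, 9.75, 9.77 and 9.98 in Gata6 KO islets, a rise of 1.24. Rps24, a small-subunit protein with alternatively spliced ends, measured 6.56, 7.33 and 7.23 against 8.58, 8.45, 8.43 and 7.84, a rise of 1.12 with all 3 probe sets higher. Rpl23a, which docks factors at the tunnel exit, measured 7.44, 7.12 and 6.96 against 8.47, 8.55, 8.34 and 8.20, a rise of 1.05. In these genes no control array reached a Gata6 KO array. Rpl7a, a large-subunit protein whose gene hosts small nucleolar RNAs, measured 7.88, 7.88 and 7.91 against 9.17, 8.98, 8.83 and 9.19, a rise of 0.99. Rps9, of the small subunit, measured 6.74, 7.03 and 6.69 against 8.17, 7.80, 7.87 and 7.86, a rise of 0.94. Rpl3, near the site of peptide bond formation, measured 6.97, 7.97 and 6.97 against 8.51, 8.53, 8.34 and 7.97, a rise of 0.87 (SE 0.25). The groups were apart in each, for Rpl3 by less than the second decimal between control 2 and Gata6 KO array 4. The call for Rpl3 was lost without control 1 or control 3 (limma, adjusted p up to 0.0607). Rps28, of the small subunit, measured 8.31, 8.58 and 7.82 against 9.29, 9.15, 9.38 and 9.22, a rise of 0.86. Rpl35, at the tunnel exit, measured 8.58, 8.95 and 8.57 against 9.83, 9.64, 9.56 and 9.32, a rise of 0.72. Rpl41, the shortest of the ribosomal proteins, measured 10.36, 10.62 and 10.40 against 11.35, 11.30, 11.27 and 11.47, a rise of 0.72. These 3 rose without overlap, but the lowest probe set of Rps28 and of Rpl35 had a difference of -0.05 and -0.13 that did not pass. Other probe sets that did not pass lay at 0.24 for Rpl19, 0.12 for Rpl7a, 0.40 and 0.30 for Rpl3 and 0.23 for Rpl41. The remaining probe sets of Rpl7a, Rpl41 and Rps9 were higher.

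Smaller rises followed. Rpl13, a large-subunit protein, measured 8.76, 8.97 and 8.67 in controls and 9.57, 9.52, 9.39 and 9.52 in Gata6 KO islets, a rise of 0.53. Rpl27, mutated in some families with Diamond-Blackfan anaemia, measured 6.75, 6.88 and 6.64 against 7.31, 7.28, 7.26 and 7.40, a rise of 0.39. Rpl4, which lines the tunnel, measured 9.74, 9.999 and 10.17 against 10.68, 10.61, 10.26 and 10.52, a rise of 0.38. No arrays overlapped in these, yet the call for Rpl27 was lost when any array but Gata6 KO 3 was left out (limma, adjusted p up to 0.114) and that for Rpl4 without control 1, control 2, Gata6 KO 1 or Gata6 KO 2 (up to 0.181). Of the 38 rises, 28 passed in each of the fits without 1 array and 10 did not. The others of those 10 were Rps7, Rpl15, Rpl17, Rps29 and Rps6, with adjusted p from limma up to 0.153 for Rps7. Rps6, the target of the S6 kinases downstream of mTORC1, had a difference of 0.40 (SE 0.16) and lost its call without control 1 or Gata6 KO 2.

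Several members did not pass. Rps18, of the small-subunit head, measured 4.57, 4.63 and 4.33 against 4.91, 4.72, 4.99 and 5.12, a difference of 0.26 with no overlap of the groups. Rps26, which lies where messenger RNA leaves the small subunit, measured 8.60, 8.73 and 8.67 against 8.77, 8.81, 8.82 and 9.84, a difference of 0.22. Its Gata6 KO array 4 stood apart at 9.84, and without it the difference was -0.01. Rpl21, a large-subunit protein, measured 10.96, 10.81 and 10.97 against 11.12, 10.86, 10.74 and 11.47, a difference of -0.03. Another probe set of Rpl21 measured 2.49, 2.52 and 2.15 in controls and 3.42, 3.29, 3.64 and 3.38 in Gata6 KO islets and rose by 0.87 (limma over all probe sets, adjusted p = 0.00826), although the chosen one did not. Rpl29, a large-subunit protein that was also described as a heparin-binding protein, measured 10.25, 10.39 and 10.52 against 10.07, 9.67, 9.88 and 10.92, a difference of -0.42 (SE 0.25). It passed as lower without Gata6 KO array 4 (-0.65 relative to all genes, limma, adjusted p = 0.0426). Rps20, of the small-subunit head, measured 2.90, 3.50 and 3.59 against 2.92, 2.63, 3.03 and 2.68, a difference of -0.68 (SE 0.23, limma, adjusted p = 0.121), and its other probe set, also of low signal, measured 1.13, 1.49 and 0.69 against 3.15, 3.40, 3.41 and 1.81 and rose by 1.66 (limma over all probe sets, adjusted p = 0.0151). The probe sets of Rps20 thus differed in sign. Rpl32, a large-subunit protein, measured 10.14, 10.72 and 10.12 against 9.94, 9.72, 9.90 and 10.18, a difference of -0.56 (SE 0.20, limma, adjusted p = 0.162). Rpl28, also of the large subunit, measured 10.69, 10.86 and 11.17 against 10.52, 10.13, 10.31 and 11.23, a difference of -0.52 (SE 0.24, limma, adjusted p = 0.297), and passed as lower without Gata6 KO array 4 (-0.72 relative to all genes, limma, adjusted p = 0.0297). In Rplp1, Rpl28, Rpl29 and Rpl32 that array was the highest of its group, and these are members whose mean log2 signal exceeds 10.

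**Figure D4:**
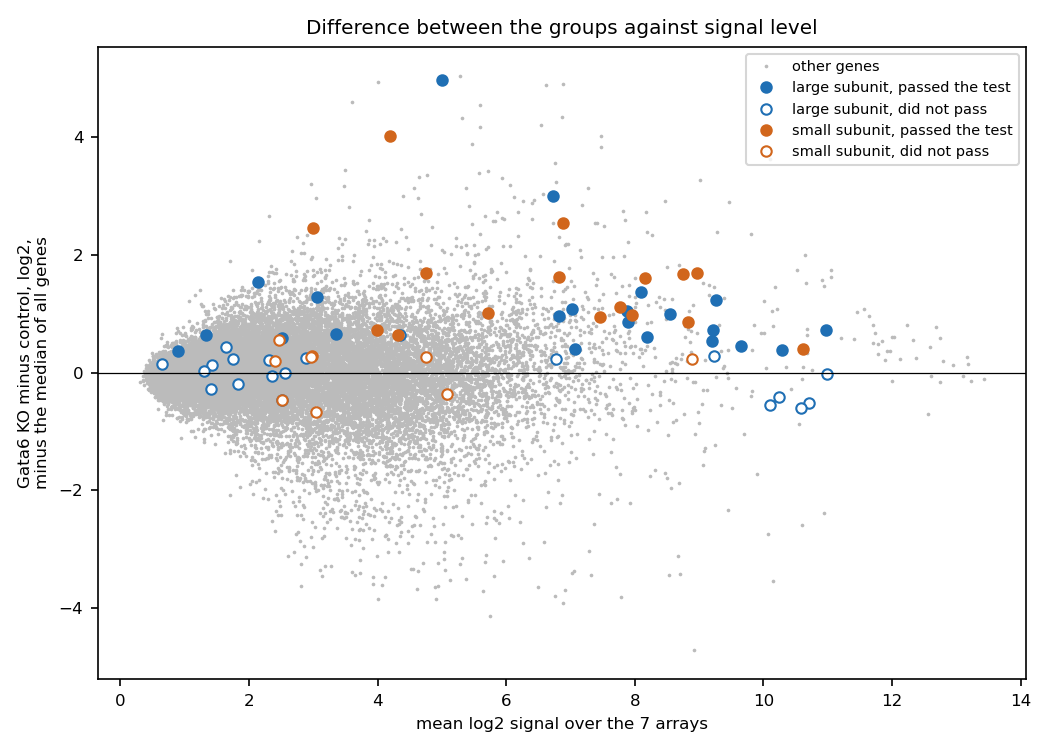
Log2 difference (Gata6 KO minus control, relative to the median of all genes) against the mean log2 signal over the 7 arrays. Large dots are ribosomal protein genes, filled where they passed the test, and small grey dots are all other genes. Of the members between 5 and 8 on the signal axis 12 of 14 rose, between 8 and 10 11 of 13, and above 10 3 of 8. The mean on that axis includes the Gata6 KO arrays, so a rise moves a gene to the right.

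How often members rose differed between bands of mean log2 signal over the 7 arrays. That mean includes the Gata6 KO arrays, so a rise itself can move a gene into a higher band. Rpl9, with a control mean of 2.05, counts between 2.5 and 5 for this reason. How far this shapes the pattern was not tested. Below a mean log2 signal of 2.5, 3 of 14 rose, where 12.5% of all genes in that band did. Between 2.5 and 5, 9 of 18 rose (20.7% of all genes), between 5 and 8, 12 of 14 (28.9%), and between 8 and 10, 11 of 13 (41.7%). Of the 8 members above 10, Rpl4, Rpl41 and Rps6 rose, with a median difference of -0.23, where 55.7% of all 70 genes in that band rose. Signals near the bottom of the scale are compressed by background and those near the top may be saturated, and the part of either in this pattern was not tested. Among the Gata6 KO arrays, array 3 was the lowest for 15 of the 38 rises and array 4 for 13. Array 1 was the highest for 15 and array 4 for 11. Of the 29 members that did not pass, array 4 was the highest for 16.

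Genes that host a small nucleolar RNA within their interval in RefSeq (22 of the 67, strand not used) rose for 11, with a median of 0.33, and the other 45 rose for 27, with a median of 0.60. Genes with the TOP-like run at a start, such as those printed above, rose for 4 of 11, with a median of 0.28. Genes without it exactly there rose for 26 of 41, with a median of 0.64, and include some with the run nearby. With 5 bases of slack on either side of the start, 10 of 22 with the run rose, with a median of 0.42. The genes without it in that range rose for 20 of 30, with a median of 0.61. These and the host counts are to be read beside the 17.4% of all genes that rose. No test was made of these differences.

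Other parts of the translation machinery give a measure of what else moved. Their counts are to be read beside the 17.4% of all genes that rose and the 7.36% that fell. Of 71 mitochondrial ribosomal proteins, which belong to a separate ribosome, 38 rose and 1 fell (Mrpl49, -0.97), with a median of 0.44, near the 0.55 of the cytosolic genes. Mrpl42 rose by 1.84 (SE 0.20, limma, adjusted p = 1.26e-05) and Mrps28 by 1.76 (SE 0.21, limma, adjusted p = 2.48e-05). Of 15 ribosomal protein pseudogenes named as such, 5 rose and the median was -0.04, but Rps12-ps24 (3.31) and Rpl31-ps20 (2.34) were among the 5. Fau, which encodes a small-subunit protein fused to a ubiquitin-like one, rose by 1.10 (SE 0.19, limma, adjusted p = 0.000334).

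Translation factors and other TOP messenger RNAs rose for 13 of 17, with none lower and a median of 0.89, among them Npm1, a nucleolar chaperone (2.57), and Naca, which binds nascent chains (1.47). Other initiation, elongation and release factors rose for 16 of 30 and fell for 3, with a median of 0.42. The release factor Etf1 (1.46) and the helicase Eif4a1 (1.07) rose, and Eif4g3 (-1.39) and Eif1b (-1.29) fell. Ribosome biogenesis genes rose for 17 of 62 (27.4%, against 17.4% of all genes) and fell for 1, the nucleolar Nolc1 (-0.87), with a median of 0.18. Nhp2, of the box H/ACA particle, rose by 1.56 and Nsa2 by 1.42. RNA polymerase I and its factors rose for 5 of 14, among them Taf1d (2.59) and Polr1d (0.77), with a median of 0.15. Of 5 dedicated ribosomal protein chaperones, 1 rose (Pdcd2l, 0.73), a share of 20% that is near that of all genes. Regulators of mTORC1, TOP translation and ribosome stress rose for 3 of 15 (20%) and fell for 2 (13.3%), with a median of -0.24. The share of rises was near the 17.4% of all genes, of which 7.36% fell. Eif4ebp1, a translation repressor, rose by 1.08 and Mycn by 0.86, and the mTORC1 subunits Mlst8 (-1.05) and Rptor (-0.93) fell.

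**Figure D5:**
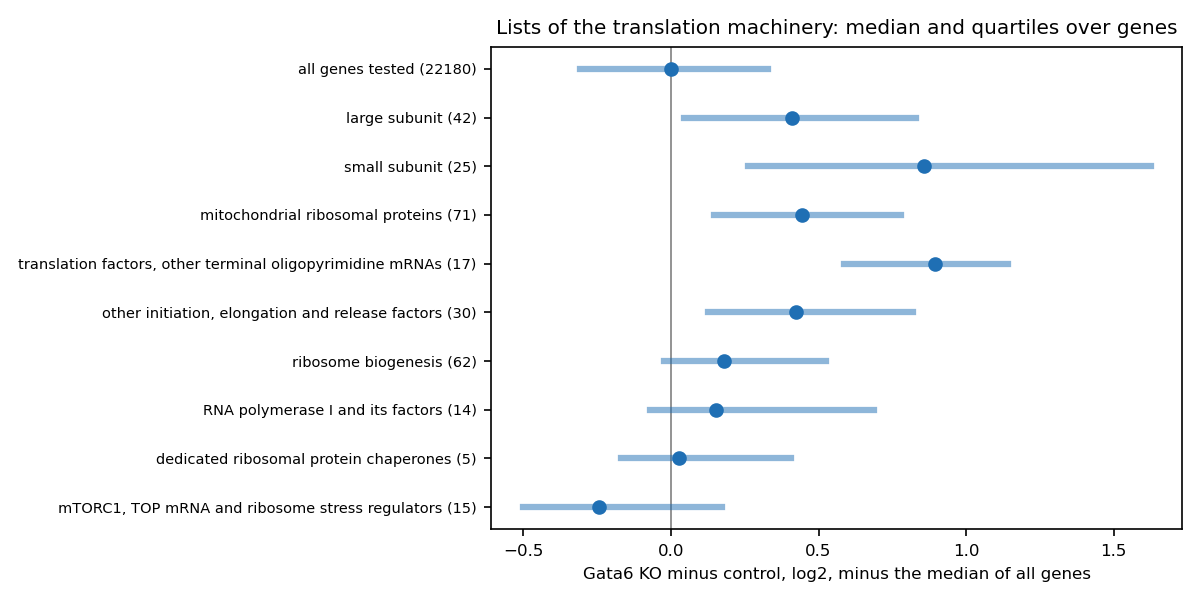
Median (dot) and quartiles over genes (bar) of the log2 difference (Gata6 KO minus control, relative to the median of all genes) for each list of the translation machinery, with the number of genes measured in brackets. The list of translation factors and other TOP messenger RNAs has a median of 0.89, the small subunit 0.86 and the list of mTORC1 and stress regulators -0.24.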

How the data were processed

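The table holds log2 signals of 41345 probe sets on 7 arrays. RMA and Transcriptome Analysis Console are the tools given by the submitters' processing notes, with no version, and the deposited log2 values are the authors' RMA output: background-corrected, normalized and summarised per probe set. The sources used here do not give the build of the platform annotation. Signals near the bottom of the scale lie near the array's background, and values near its top may be saturated. The small number of arrays limits the precision. Nothing says that the pools of one group were made from separate litters, so p-values measure the spread between these pools.

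Probe sets with 1 symbol were collapsed to the highest-mean one per gene, 22180 genes in all. Gata6 KO was compared with control by limma 3.58.1 in R 4.3.3 (lmFit, eBayes with trend, Benjamini-Hochberg over all genes, adjusted p under 0.05). No covariate was used. The script was tested on simulated data. The members and gene lists were chosen with earlier results of these data known. Per-array values are given for the 8 largest rises and falls among members past the threshold whose groups did not overlap (no fall passed), for the listed second-copy paralogs, the stalk, the proteins bound to the smallest large-subunit RNA and genes with several probe sets. Values of Rpl32, Rpl28, Rpl6l and Rpl32l were added after they were seen. For each other list, up to 2 rises and 2 falls with the smallest p are named. Alternatives tried were 2 scalings, filters, probe-set rules, other limma settings, the replicate number as a block and leaving out each array. Sequences came from RefSeq (GRCm38.p6), where all 67 members matched by gene identifier. A missing window was not looked for elsewhere.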

Additional observations from a re-analysis of the deposited data

Results flagged for a closer look

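Among 37 groups of 4 Gata6 KO arrays, 1 per named member, a single array stood apart from the other 3 for 1 gene. Rps26 had a log2 signal of 9.84 on Gata6 KO array 4, against 8.77, 8.81 and 8.82 on the others. Chance sets apart about 5% of such groups.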

How the results depend on the processing

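The members' median difference stayed above the median of all genes under each alternative tried, while the counts moved. Higher members numbered 38 as reported, 25 with each array centred on its median and 27 with quantile normalization repeated, and 0 members lower became 3 and 5. With array weights 1 member was lower, where 8.76% of all genes fell. The replicate numbers did not pair the arrays (correlations of same-numbered arrays 0.098, 0.004 and 0.115). A fit with the replicate number as a block gave 37 higher and 3 lower, where 17.9% of all genes rose and 8.77% fell. No control shares the number of Gata6 KO array 4, so that fit takes no difference from this array, and its 3 lower genes have the same differences as without it. Higher large-subunit genes numbered 12 with centring and 13 with repeated quantile normalization, and lower ones 2 and 4, with 1 under array weights and 3 under the block. Lower small-subunit genes numbered 1 under each of the 2 scalings. Leaving out 1 array gave 28 to 37 higher members and 0 to 3 lower, 15 to 22 and 0 to 3 in the large subunit and 13 to 16 and 0 to 0 in the small. Across all genes 10.1% to 17.2% rose and 4.59% to 8.12% fell in those fits.

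Signs turned for 10 named members. With the lowest-mean probe set of the gene the differences were -0.68 for Rpl9, 0.88 for Rpl21, -0.23 for Rpl27, -0.13 for Rpl35, 0.25 for Rplp1, 1.67 for Rps20, -0.67 for Rps26 and -0.0502 for Rps28, and with the mean of all probe sets 0.19 for Rpl21, 0.50 for Rps20 and -0.23 for Rps26. On the arrays with high Xist alone, Rpl21 was at 0.0868 and Rpl39l at 0.0622. Array weights put Rpl39l at 0.0126. With the replicate block Rpl39l was at 0.0118, Rplp2 at -0.0875 and Rps26 at -0.0092. Without 1 array, Rpl21 ranged from -0.147 to 0.0706, Rpl39l from -0.0694 to 0.0529, Rplp2 from -0.0875 to 0.262 and Rps26 from -0.0092 (without Gata6 KO array 4) to 0.31. Of 774 values for named members under alternatives, 678 kept direction and side of the threshold, 59 lost the call and 13 gained one. The other probe sets of Rpl9, Rpl21, Rpl35, Rplp1, Rps20 and Rps28 are described above. Those of Rpl27 (mean 1.72 in controls and 1.66 in Gata6 KO islets) and Rps26 (1.26 and 0.75) had low signals and did not pass. The cause of the remaining turns was not tested.

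The 7 pools, background at low signals and near-identical gene copies limit what these values can show, and 13 ribosomal protein symbols were not analysed by name.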
